A study of Homo sapiens with 7 samples.

Results

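Myc peaks at gene ends that belong to 2 or more protein-coding genes were taken from a CUT&RUN peak list of HT29 cells, an established line of human colon adenocarcinoma. A peak was counted when its summit, the base of highest signal, lay within 1 kb of an annotated end of at least 2 coding genes on chromosomes 1 to 22. These were 1849 of the 46129 peaks on those chromosomes and of 47017 in the whole list. Another 8990 summits lay near an end of exactly 1 coding gene and serve as the comparison, and 35290 lay near none. In CUT&RUN an antibody guides a nuclease to its target in permeable cells, and the released DNA is sequenced. By title there were 3 Myc libraries, 3 IgG control libraries and 1 input. All of them came from cells given oleic acid, a monounsaturated fatty acid, for 6 h in serum-free medium, and no group without it was analysed here. The IgG libraries carry the same Myc antibody in their labels, and the titles were followed. The list holds 1 fold enrichment per peak for the whole series, the Myc signal over the local control level at the summit, so no spread between libraries can be given.

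Many human genes lie head to head: they are transcribed away from each other from starts a short way apart, and the stretch between the starts serves as the promoter of both. Such pairs are common among genes of DNA repair, mitochondria and translation, and most have promoters rich in CpG. Genes can also meet tail to tail, at their 3′ ends, or head to tail, where the end of one precedes the start of the next. Myc is a transcription factor that binds DNA with its partner MAX at the E-box CACGTG and related sequences, mostly in open promoters.

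The 1849 peaks covered 1788 distinct sets of genes, with 3460 genes in all. Exactly 2 genes were near 1779 summits, 3 genes near 67 and 4 genes near 3. The NCBI RefSeq promoter table of GRCh38.p14 gave the strand of 15100 of 19122 coding genes. Strand was known for both genes at 1336 of the peaks with 2 genes. Of these, 906 (67.8%) lay at head-to-head starts, 268 at head-to-tail neighbours on the same strand and 70 at tail-to-tail ends. A further 62 lay at 2 starts on the same strand, 24 at a start and a 3′ end on opposite strands and 6 at 2 ends on the same strand. Read-through genes, which join the exons of 2 neighbours under a hyphenated symbol, took part in 68 of the 1849 peaks.

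Up to 250 bases of the DNA between the 2 starts were read for 12 head-to-head pairs and are shown for 8 of them. These 8 are 4 from the 20 pairs with the highest folds and 4 from a list of known divergent pairs. They set promoters with and without an E-box side by side. The 12 leave out some of the highest pairs, such as DDX42/CCDC47 (fold 40.5). Each line gives the plus strand 5′ to 3′ (GRCh38.p14, RefSeq), up to the base before the start of the plus-strand gene. Capitals mark the E-box CACGTG and its variants CACGCG and CATGTG, the CCAAT box and the ETS core CCGGAA, on either strand. For AIMP2/PMS2 and SARS2/MRPS12 the whole stretch is printed, and for the others the 250 bases nearest the plus-strand start.
MRPS18B/PPP1R10 (chr6:30617590-30617839): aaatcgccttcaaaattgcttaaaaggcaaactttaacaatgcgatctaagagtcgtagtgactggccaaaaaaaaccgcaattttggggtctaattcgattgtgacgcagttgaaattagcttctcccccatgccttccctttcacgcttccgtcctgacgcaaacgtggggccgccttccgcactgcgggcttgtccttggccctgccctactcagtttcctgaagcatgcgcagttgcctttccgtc
AIMP2/PMS2 (chr7:6009107-6009271): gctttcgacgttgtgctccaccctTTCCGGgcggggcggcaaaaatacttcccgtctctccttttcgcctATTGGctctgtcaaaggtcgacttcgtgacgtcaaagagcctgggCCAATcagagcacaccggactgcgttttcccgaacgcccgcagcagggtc
EARS2/UBFD1 (chr16:23557477-23557726): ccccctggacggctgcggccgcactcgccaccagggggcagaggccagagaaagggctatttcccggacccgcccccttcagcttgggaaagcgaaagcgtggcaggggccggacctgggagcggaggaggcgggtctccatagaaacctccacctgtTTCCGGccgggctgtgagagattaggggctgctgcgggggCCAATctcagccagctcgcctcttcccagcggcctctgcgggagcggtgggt
BLOC1S3/TRAPPC6A (chr19:45178534-45178783): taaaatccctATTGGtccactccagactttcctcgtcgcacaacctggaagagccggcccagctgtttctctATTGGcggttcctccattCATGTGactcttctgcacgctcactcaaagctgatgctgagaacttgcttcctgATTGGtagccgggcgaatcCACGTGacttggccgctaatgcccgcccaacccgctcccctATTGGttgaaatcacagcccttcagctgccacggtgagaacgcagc
FEN1/TMEM258 (chr11:61792661-61792910): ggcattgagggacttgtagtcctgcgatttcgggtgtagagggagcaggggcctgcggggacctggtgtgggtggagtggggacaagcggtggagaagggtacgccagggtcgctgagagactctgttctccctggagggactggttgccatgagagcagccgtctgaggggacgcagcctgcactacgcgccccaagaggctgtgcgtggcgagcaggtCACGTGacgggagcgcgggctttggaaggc
SARS2/MRPS12 (chr19:38930764-38930943): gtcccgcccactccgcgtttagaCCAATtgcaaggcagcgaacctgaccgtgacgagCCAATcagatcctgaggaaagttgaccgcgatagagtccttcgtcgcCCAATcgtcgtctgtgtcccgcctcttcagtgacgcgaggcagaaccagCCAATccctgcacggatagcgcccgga
AGPAT1/RNF5 (chr6:32178155-32178404): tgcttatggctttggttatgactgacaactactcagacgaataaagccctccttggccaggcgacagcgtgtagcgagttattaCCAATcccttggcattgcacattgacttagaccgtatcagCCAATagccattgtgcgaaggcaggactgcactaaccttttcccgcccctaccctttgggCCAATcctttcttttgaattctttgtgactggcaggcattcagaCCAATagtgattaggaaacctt
ATM/NPAT (chr11:108222817-108223066): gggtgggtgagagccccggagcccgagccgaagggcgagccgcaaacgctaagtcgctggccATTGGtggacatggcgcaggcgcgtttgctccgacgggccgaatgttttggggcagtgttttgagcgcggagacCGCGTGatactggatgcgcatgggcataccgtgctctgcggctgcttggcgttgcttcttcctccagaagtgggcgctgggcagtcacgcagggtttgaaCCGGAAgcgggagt

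The stretch with the highest fold, at MRPS18B/PPP1R10, held none of the marked sequences. BLOC1S3/TRAPPC6A and FEN1/TMEM258 held a CACGTG, whose centre lay 136 and 132 bp from the summit. ATM/NPAT held a CACGCG 203 bp from its summit. Among the 12 stretches read, 3 held an E-box or variant, 7 a CCAAT box and 3 a CCGGAA, and 4 of the 12 contained the summit. A match is a run of letters, and binding to it was not measured.

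Peaks at shared ends had higher folds than peaks near a single gene. The median fold was 8.73 over the 1849 shared peaks (95% interval of the median 8.46 to 9.01), against 6.73 near exactly 1 gene (6.61 to 6.83). The medians over peaks near no coding gene and over all peaks were 3.72 and 4.10. The difference between shared and single was 0.38 on the log2 scale, a ratio of 1.30. A fold of 10 or more was reached by 724 shared peaks (39.2%, Wilson 95% interval 37.0 to 41.4), where 9.73% of all peaks and 23.6% of peaks near 1 gene reached it. Folds at shared ends ranged from 2.14 to 44.6, and 204 (11.0%) lay below the median of all peaks. The Myc pileup, the number of fragments over the summit recovered from the deposited values, had a median of 62 at shared ends and 48 near 1 gene. Control levels had a median of 5.89 in both. Intervals describe counts of peaks and fragments, not replicates.

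Among the 10839 peaks near any coding gene end, 17.1% were shared. That share was 8.58% in the tenth with the lowest folds and 27.7% in the tenth with the highest. Of the 100 strongest gene-end peaks, 35 were shared (Wilson 95% interval 26.4 to 44.7%), and 280 of the strongest 1000 were (25.3 to 30.9%).

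Orientation separated the shared peaks into strong and weak ones. Head-to-head peaks had a median fold of 9.68 (9.34 to 10.2), and 47.6% reached 10. Tail-to-tail peaks had 3.94 (3.45 to 4.57), and 2 of 70 reached 10 (2.86%, 0.787 to 9.83), an interval that holds the 9.73% of all peaks. Head-to-tail peaks had 7.92 (7.21 to 8.56), 2 starts on the same strand 7.98 (6.62 to 8.85), and peaks near 3 or more genes 8.96 (7.51 to 10.4). The 443 peaks with 2 genes and a strand not given had 8.04 (7.68 to 8.70). For single genes, the median was 7.22 (7.15 to 7.36) over 6560 summits at the start and 3.77 (3.61 to 3.94) over 743 at the other end. Head-to-head peaks thus stood 0.42 above single starts on the log2 scale, and their intervals did not overlap. Tail-to-tail peaks stood 0.06 above single 3′ ends, with overlapping intervals. The intervals of head-to-tail peaks and of same-strand starts overlapped that of single starts. Median pileups were 70.5 at head-to-head starts, 52 at single starts and 25 at tail-to-tail ends, over control levels of 6.14, 5.93 and 5.37.

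**Figure D1:**
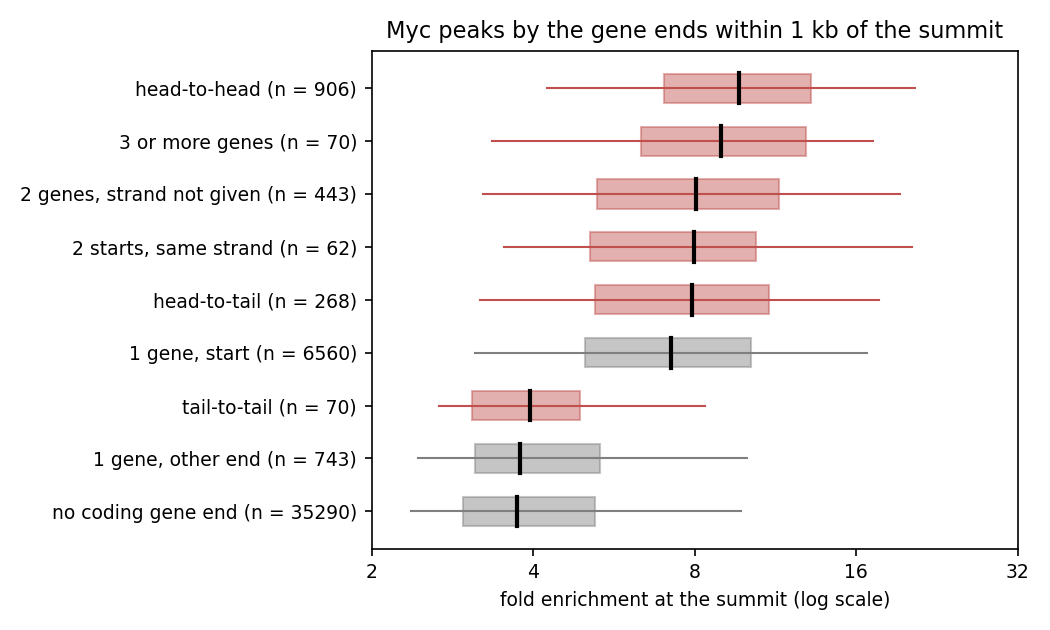
Fold enrichment at the summit (log axis) by the coding gene ends within 1 kb; boxes give the 25th to 75th percentile, black bars the median and lines the 5th to 95th percentile, with shared ends in red and comparison groups in grey. Head-to-head peaks have the highest median (9.68), and tail-to-tail peaks (3.94) lie with single 3′ ends (3.77).

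Head-to-head pairs seldom lacked a Myc summit. Where the strand of both genes was given, 1062 pairs of coding genes had starts on opposite strands within 1 kb of each other. Of these, 925 (87.1%, Wilson 95% interval 84.9 to 89.0) had a summit within 1 kb of both. Of 11361 lone starts, with no end of another coding gene within 2 kb, 5750 (50.6%, 49.7 to 51.5) had one, although the window around 1 start is wider than the overlap of 2 windows. Over all 3753 pairs of coding gene ends within 1 kb of each other, in any orientation, 1815 (48.4%, 46.8 to 49.96) had a summit near both. Over all coding genes, 57.4% had a summit near either end. The share was 77.4% (69.6 to 83.7) for 133 pairs of same-strand starts, 55.9% (51.3 to 60.4) for 451 head-to-tail pairs and 11.8% (9.45 to 14.5) for 621 tail-to-tail pairs. For the 1060 close pairs with a strand not given, some of which may be head-to-head, it was 40.8% (37.8 to 43.7). Lone 3′ ends had a summit in 5.12% (4.74 to 5.54) of 11731 cases, and 7 of 377 pairs that share a 3′ end on the same strand had one.

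CpG content was set beside this result, since it differs between the starts. The ratio of CpG observed over expected in the 300 bases at the start was 0.8 or more at 64.7% of head-to-head starts and at 42.1% of lone starts. Among starts with 0.8 or more, 93.1% (91.5 to 94.4) of 1196 head-to-head starts and 76.7% (75.4 to 78.0) of 4169 lone starts had a summit within 1 kb. Below 0.4 these shares were 42.9% (31.9 to 54.5) of 70 and 13.3% (12.1 to 14.6) of 2864. The 4 bins all gave the higher share to head-to-head starts, with intervals that did not overlap. The fold of the strongest summit at the start had medians of 9.61 (9.34 to 9.86) and 7.83 (7.69 to 7.99) in the bin of 0.8 or more. Openness of the chromatin was not measured here, and its part in the result was not tested.

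**Figure D2:**
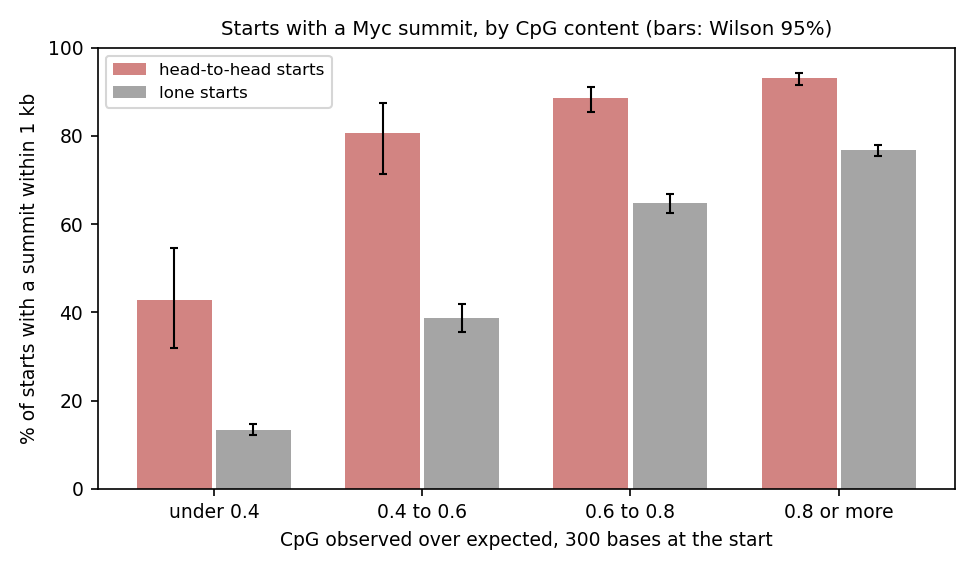
Percentage of annotated starts with a Myc summit within 1 kb, by the ratio of CpG observed over expected in the 300 bases at the start, for head-to-head starts (red) and lone starts (grey), with Wilson 95% intervals. The share is higher for head-to-head starts in each of the 4 bins, from 42.9% against 13.3% to 93.1% against 76.7%, but 1 summit can count for both starts of a pair.

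A non-coding partner went with a smaller step. Of the single coding starts, 1191 also had the start of a lncRNA gene on the other strand within 1 kb of the summit, with a median fold of 8.002 (7.75 to 8.38). The 5092 with no lncRNA end nearby had 7.06 (6.89 to 7.15). Both medians were below the 9.68 of coding head-to-head peaks, and the interval for a lncRNA partner lay between the other two without overlap.

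Head-to-head peaks were also higher at matched distance from the start. With the summit at 100 bp or less from the nearest start, head-to-head peaks had a median of 9.39 (8.50 to 10.5, 168 peaks) and single starts 6.75 (6.40 to 7.22). Beyond that and up to 250 bp the medians were 9.92 (9.52 to 10.4, 558 peaks) and 7.77 (7.56 to 7.96). From there to 500 bp they were 9.42 (8.53 to 10.4) and 7.30 (7.13 to 7.55). Between 500 and 1000 bp the intervals overlapped, with 7.50 (5.74 to 11.0) over 53 head-to-head peaks and 5.94 (5.70 to 6.16) at single starts.

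Summits mostly lay just inside one of the genes. At head-to-head starts the nearest start was a median of 154 bp away, and 725 of 906 summits (80.0%) lay on the inner side of it. Of the head-to-head summits, 46.1% fell 100 to 200 bp inside the nearest start, and 3.64% in the last 100 bp before it. At single starts 61.9% of summits lay inside the gene. These shares cannot be compared, because a summit upstream of one head-to-head start soon becomes nearer to the other start and then counts as inside that gene.

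**Figure D3:**
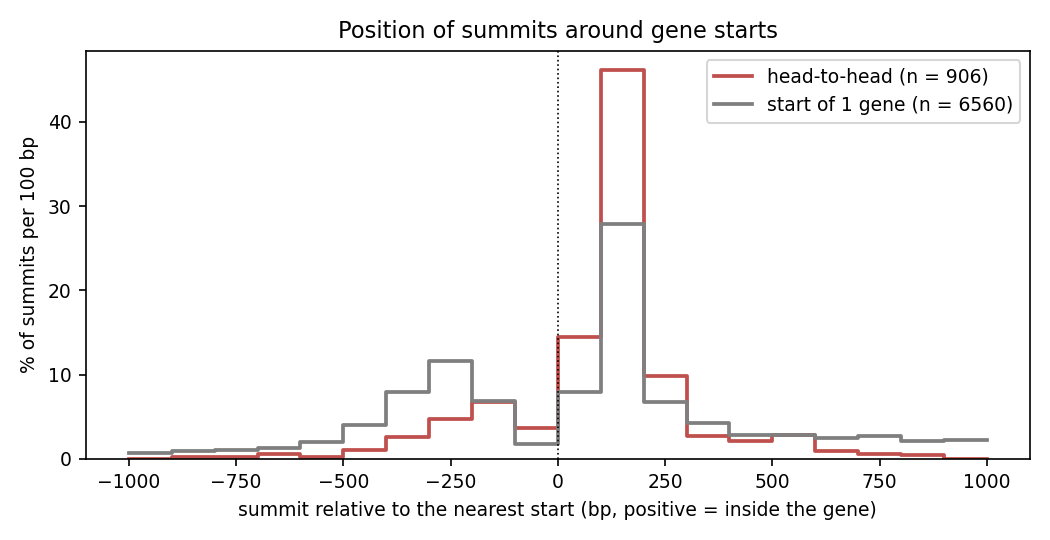
Position of summits relative to the nearest annotated start, in percent of summits per 100 bp, with positive distances inside the gene, for head-to-head peaks (red) and peaks at the start of 1 gene (grey). Both have their highest bin at 100 to 200 bp inside the gene (46.1% and 27.9%), and the nearest-start rule itself keeps head-to-head summits from lying far upstream.

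The distance between head-to-head starts had a median of 212 bp. Median folds ran from 8.95 (7.34 to 10.6) at 0 to 50 bp and 8.96 (7.77 to 9.65) at 51 to 100 bp to 10.7 (9.82 to 11.7) above 300 and up to 500 bp. The interval of the last of these overlapped that of the first bin and not that of the second. Of the 906 summits, 216 (23.8%) lay between the starts. None did where the starts were up to 100 bp apart, 47.7% did above 300 and up to 500 bp and 63.2% above 500 and up to 1000 bp. Summits between the starts had a median fold of 11.2 (10.4 to 11.9), against 9.35 (9.01 to 9.68) for those outside, and their starts lay farther apart (medians 462 and 158 bp). Peaks of pairs whose annotated spans overlap (227 peaks) and of pairs apart (679) had medians of 9.85 and 9.65.

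**Figure D4:**
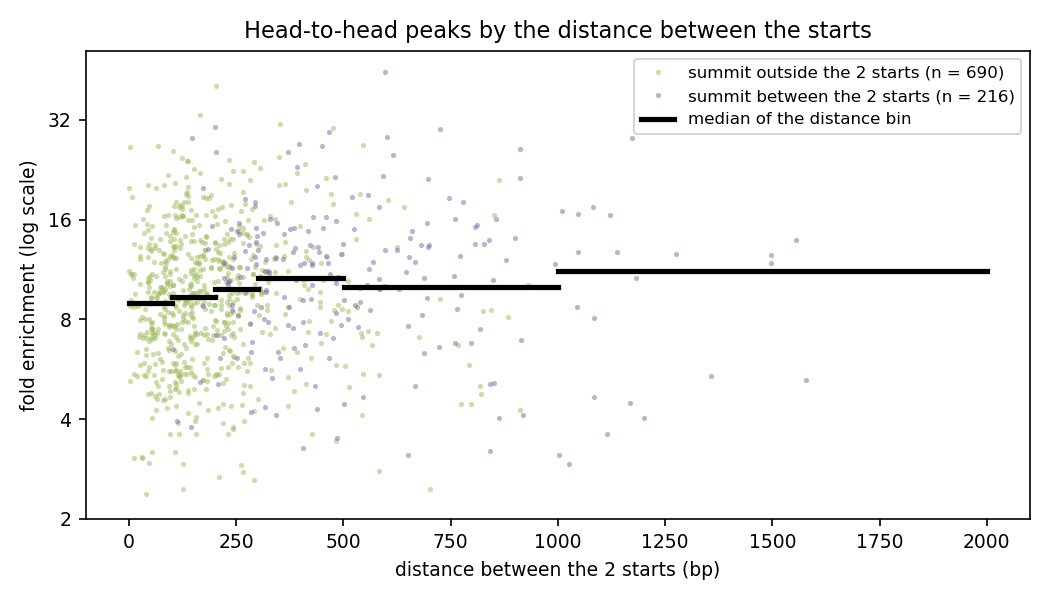
Fold enrichment (log axis) of the 906 head-to-head peaks against the distance between the 2 starts in bp; points are peaks, green with the summit outside the starts and purple with it between them, and black lines are medians of distance bins. The medians lie between 8.95 and 11.2 in all bins, and no summit lies between starts up to 100 bp apart.

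The highest fold at a shared end, 44.6 (exact Poisson 95% interval 39.5 to 50.3), lay between MRPS18B, which encodes a mitochondrial ribosomal protein, and PPP1R10, a nuclear partner of protein phosphatase 1. Its summit on chromosome 6 at 30617644 was 196 bp upstream of MRPS18B (30617840 to 30626392, plus strand) and 401 bp upstream of PPP1R10 (30600413 to 30617243, minus strand). There 271 fragments stood against a control of 5.09, and the fold is their ratio with 1 added to each. The same control value was recovered at many other shared peaks, AIMP2/PMS2 among them, so it may not be specific to this site. DDX42, an RNA helicase gene, and CCDC47, an endoplasmic reticulum protein gene, shared a peak with a fold of 40.5 (36.4 to 44.8). That peak had the highest pileup of the 20 leading pairs, 366, and its summit lay 160 bp inside DDX42 (chromosome 17, 63773960). These intervals overlapped, so the order of the first 2 pairs is not beyond counting error.

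Splicing, chaperone and translation genes were among the pairs that followed. CBX5, the heterochromatin protein HP1 alpha, and HNRNPA1, an RNA-binding protein, had 36.1 (31.7 to 41.0). AIMP2, a scaffold of the tRNA synthetase complex, and the mismatch repair gene PMS2 had 33.2 (28.7 to 38.04). The growth factor gene GDF5 and the centrosome gene CEP250 had 32.3. CCT5, a subunit of the chaperonin that folds actin and tubulin, and the methyltransferase gene ATPSCKMT had 31.5 (27.6 to 35.7). EARS2, the mitochondrial glutamyl-tRNA synthetase, and UBFD1 had 31.0 (27.2 to 35.2).

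The other 13 of the 20 leading pairs lay between 26.9 and 30.5. They were TMEM91/B9D2 (30.5), PRDX5/TRMT112 (30.2), SNRPA/ACTMAP (29.98), RIOK1/CAGE1 (29.6), PIDD1/RPLP2 (29.5), WDR12/CARF (28.4), DYNLT4/BTBD19 (28.3) and COA4/PAAF1 (28.1). METTL1/EEF1AKMT3 (27.97), TBC1D17/AKT1S1 (27.8), C2CD2L/DPAGT1 (27.1), CDC42EP5/LENG9 (26.9) and BLOC1S3/TRAPPC6A (26.9) completed them. Their intervals overlapped, so no order among these is beyond counting error. Several encode parts of the machinery of translation: TRMT112 is a cofactor of methyltransferases for rRNA, tRNA and release factors, RIOK1 matures the small ribosomal subunit, and WDR12 assembles the large one. RPLP2 is a ribosomal stalk protein, and METTL1 methylates tRNA. SNRPA is a protein of the U1 spliceosomal particle, COA4 serves assembly of cytochrome c oxidase, and AKT1S1 is the mTORC1 inhibitor PRAS40.

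Of the 20 pairs 13 were head-to-head, and the strand of a gene was not given for the other 7. Pileups ranged from 167 to 366 and control levels from 5.09 to 8.84. The summit lay between the 2 ends in 12 of the 20 pairs, and the median distance between the ends was 470.5 bp. Peaks were 1418 to 3526 bp wide, where the median shared peak had 1649 bp and the median peak near 1 gene 1306.5 bp.

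**Figure D5:**
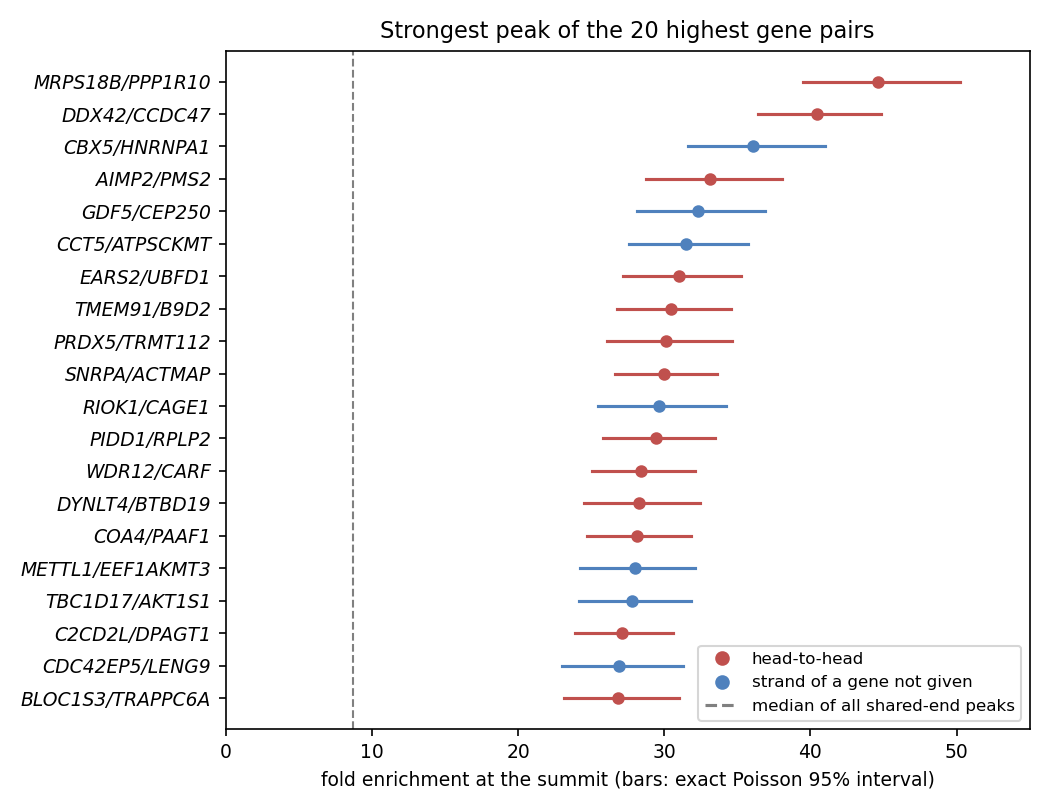
Fold enrichment at the summit of the strongest peak of the 20 highest gene pairs, with exact Poisson 95% intervals of the pileup, head-to-head pairs in red, pairs with a strand not given in blue, and the median of all shared-end peaks (8.73) as a dashed line. The 20 folds run from 26.9 to 44.6, and neighbours in the order have overlapping intervals.

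Head-to-tail peaks were led by the membrane fusion gene STX5 with TEX54 (26.7, 22.9 to 31.0) and by the kinase gene DYRK1B with FBL (25.9, 22.1 to 30.3), which encodes fibrillarin, the rRNA methylase. MTF1, a metal-responsive factor, with INPP5B had 22.5, PRELID3B with the ATP synthase gene ATP5F1E 21.8, and TRAF4 with NEK8 21.5. In 203 of the 268 head-to-tail peaks (75.7%) the start was nearer to the summit than the 3′ end. The median fold was 8.22 there and 7.21 in the 65 where the end was nearer.

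The strongest tail-to-tail peak was at DBP, a clock-controlled transcription factor gene, and the sphingosine kinase gene SPHK2, with a fold of 13.5 (11.0 to 16.3). It was followed by the tubulin gene TUBA4A with the kinase gene STK16 (11.0, 8.54 to 13.9), PRR7 with DBN1 (8.71), RPS3 with KLHL35 (8.51) and CLDN7 with ELP5 (8.21). At the start of SPHK2 another shared peak, head-to-head with the ribosomal protein gene RPL18, had 16.5 (13.9 to 19.4) and was 1 of the 3 widest.

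Of the 5 highest peaks at 2 starts of the same strand, 4 joined a gene to its own read-through form. ANKHD1 with ANKHD1-EIF4EBP3 had a fold of 24.8, ISY1 with ISY1-RAB43 23.7, LY75 with LY75-CD302 20.4 and the nucleoside diphosphate kinase gene NME1 with NME1-NME2 19.2. The immunophilin gene FKBP2 with LOC114841035 had 24.8. In each of these 5 the annotated starts coincide. At a start and an end of opposite strands, the cell cycle factor gene E2F3 with LOC124901482 led with 18.6.

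Peaks near 3 genes were led by CIB1/NGRN/TTLL13 at 19.9 (17.0 to 23.02) and by UTP4/CHTF8/DERPC at 19.7 (16.7 to 23.1), where UTP4 serves ribosome assembly and CHTF8 loads the replication clamp. AK6/TAF9/RAD17 had 17.9, IL4I1/NUP62/ATF5 17.5 and PMF1/PMF1-BGLAP/SLC25A44 16.7. AK6 and TAF9 have 1 annotated start, as do IL4I1 and NUP62. The other 5 of the 10 highest were C19orf73/LIN7B/PPFIA3 (16.2), UFSP1/ACHE/SRRT (15.8), SEPTIN1/MYL11/ZNF48 (15.6), PPAN-P2RY11/PPAN/ANGPTL6 (15.1) and EEF1AKMT4/EEF1AKMT4-ECE2/ALG3 (15.1).

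A list of 24 gene pairs known or thought to be divergent was looked up, with or without a peak. Of these, 17 had a shared peak, with folds from 6.34 to 29.5 and a median of 13.3. Strand put 15 of the pairs head to head, and 13 of those had a peak, where 87.1% of all pairs that strand put head to head did. The 2 without were the collagen pairs COL4A1/COL4A2 and COL4A3/COL4A4, which encode basement membrane chains and had no summit near any end. RPLP2/PIDD1 was highest. The purine synthesis gene GART with SON had 17.1 (13.96 to 20.7).

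Genome maintenance and translation pairs of that list lay close together. FEN1, the flap nuclease of replication, with TMEM258 had 14.6 (12.4 to 17.1), and PRKDC, the kinase of DNA end joining, with the replicative helicase gene MCM4 14.4 (11.6 to 17.8). ATM, the kinase that signals DNA breaks, with NPAT had 13.2 (11.0 to 15.8), and the repair nuclease gene APEX1 with OSGEP 12.3 (9.91 to 15.2). SARS2 with MRPS12 had 14.2 (11.9 to 16.8), and the histidyl-tRNA synthetase genes HARS1 and HARS2 9.10 (7.18 to 11.4). The mitochondrial chaperonin genes HSPD1 and HSPE1 had 13.3 (10.6 to 16.5). Their intervals overlapped, except that the one for HARS1/HARS2 lay below those for FEN1/TMEM258, PRKDC/MCM4 and SARS2/MRPS12.

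SERPINI1/PDCD10 (13.5), the acyltransferase gene AGPAT1 with RNF5 (13.6), SIRT3/PSMD13 (12.3), TAP1/PSMB9 (10.7) and the thymidine kinase gene TK1 with AFMID (10.4) were also above the median of shared peaks. SURF1/SURF2 had a lower value (6.34, 4.75 to 8.30). The ends of PPAT and PAICS, another purine synthesis pair, lie 17145 bp apart in the table. By these annotated ends that pair was not counted as shared. A summit near an annotated end of PPAT and of no other coding gene had 41.2, and the strongest near an end of PAICS had 3.63. Whether the genes start closer together than these annotated ends was not examined.

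DNA repair and mitochondrial genes were frequent at shared ends. Of 79 DNA repair genes 33 (41.8%, Wilson 95% interval 31.5 to 52.8) had a peak at a shared end, where 18.1% of all coding genes did. Their median fold was 12.2, against 9.13 over all genes with a shared peak. They included PMS2 (33.2), the nucleotide excision repair gene ERCC8 with NDUFAF2 (24.1), TDG with UQCC6 (22.2), where TDG encodes thymine DNA glycosylase, and PMS1 with ORMDL1 (18.1). A further 42 had a peak at an unshared end only, with a median of 8.35, and 4 had none.

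Of 77 mitochondrial ribosomal protein genes 34 (44.2%, 33.6 to 55.3) had a shared peak, with a median fold of 10.6. After MRPS18B, these were led by MRPL32 with the proteasome gene PSMA2 (16.4), MRPL40 with the histone chaperone gene HIRA (15.4) and MRPS12 (14.2). Of 80 respiratory chain and ATP synthase symbols 33 did (41.3%, 31.1 to 52.2; median 9.57), among them ATP5F1E (21.8), UQCRH with LRRC41 (20.4), ATP5MF with its read-through form (18.9) and NDUFA11 with VMAC (17.5). Of 35 aminoacyl-tRNA synthetase genes 14 did (40.0%, 25.6 to 56.4; median 9.72), among them EARS2 and AARS1 with DDX19B (17.0).

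Of 81 cytosolic ribosomal protein symbols 27 had a shared peak (33.3%, 24.0 to 44.1; median 12.1). RPLP2 was followed by RPL9 with the lipoate synthase gene LIAS (21.5), RPL27A with TRIM66 (20.2) and RPL4 with the kinetochore gene ZWILCH (19.1). Among 59 cell cycle and replication genes 23 did (39.0%, 27.6 to 51.7; median 10.3), led by the origin recognition gene ORC6 with VPS35 (21.5), E2F3 (18.6) and the helicase gene MCM7 with AP4M1 (18.3). Of 37 chaperone genes 18 did (48.6%, 33.4 to 64.1; median 11.6), with CCT5 first, then DNAJC7 with NKIRAS2 (15.9) and PFDN6 with WDR46 (15.5). The other 18 chaperone genes with a peak, at an unshared end, had a higher median, 14.7, the reverse of the order in the other lists with a shared peak and over all coding genes (9.13 shared, 7.24 unshared). Of 43 proteasome genes 14 did (32.6%, 20.5 to 47.5; median 10.5), led by PSMD9 with HPD (18.6) and PSMA1 with PDE3B (18.1).

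The lists also differed in how often a gene has a close neighbour. Another coding end lay within 1 kb of an end of 51.9% of the DNA repair genes, 54.5% of the mitochondrial ribosomal protein genes and 29.0% of all coding genes. Of the genes with such a close end, 59.9% over all coding genes had a shared peak. The value was 78.0% for DNA repair, 78.6% for mitochondrial ribosomal proteins, 88.5% for cell cycle and replication, 87.1% for ribosomal proteins and 94.4% for chaperones. Orientation differed as well. Over all coding genes 5546 had a close end, and strand put 2094 head to head. The counts were 41 and 25 for DNA repair, and 42 and 23 for mitochondrial ribosomal proteins. They were 26 and 11 for cell cycle and replication, 31 and 14 for ribosomal proteins, and 18 and 12 for chaperones. The part of orientation in these shares was not tested. For the 40 histone genes with a close end the share with a shared peak was 60.0%, near the 59.9% of all. Strand put 25 histone genes head to head, and 8 had a head-to-head peak, where the counts over all coding genes were 2094 and 1752. Of the genes with any peak at an end, 31.5% over all coding genes had a shared one. That share was 34.6% for ribosomal proteins and 36.8% for the proteasome, close to it. It was 44.0% for DNA repair, 45.3% for mitochondrial ribosomal proteins, 48.0% for histone genes and 17.7% for ZNF genes.

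Histone, zinc finger and tissue-specific families were counted in the same way. Of 71 replication-dependent histone genes 24 had a shared peak (33.8%, 23.9 to 45.4), with a median fold of 7.29, below the 9.13 of all genes. The highest was shared by H2AC25 and H2BC26 (14.4), and the widest shared peak of all lay at H2BC13 and H2AC13 (fold 7.29, 5.67 to 9.25). Of 497 ZNF genes 53 did (10.7%, 8.25 to 13.7), below the 18.1% of all coding genes, led by ZNF524 with FIZ1 (21.6) and ZNF408 with ARHGAP1 (19.7). Of the 90 ZNF genes with a close end 54.4% had a shared peak, near the 59.9% of all coding genes with one. None of 538 keratin, keratin-associated and olfactory receptor genes did, although 23 of them have a close end. Of the 538, 523 had no peak at either end and 15 had one at an unshared end.

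Promoter sequence was compared between head-to-head and single starts. The 10 motifs searched on both strands were the E-box CACGTG with its variants CACGCG and also CATGTG, the CCAAT box, the Sp1 core GGGCGG, the ETS core CCGGAA, the NRF1 site, the TATA box TATAAA, the AP-1 site TGACTCA and the ZNF143 part site ACTACAA. They were sought in the 300 bases from 250 before to 50 after each annotated start. They do not contain one another. CACGTG was in 11.1% (9.60 to 12.7) of 1545 promoters with a shared head-to-head peak and in 10.4% (9.59 to 11.2) of 5579 with an unshared peak. It was in 5.96% (5.34 to 6.65) of 5019 coding promoters with no peak and in 7.26% of all 35116 promoters in the table. CACGCG was in 19.6%, 19.4%, 8.49% and 11.4% of the same sets, and CATGTG in 5.70%, 6.56%, 11.8% and 11.1%. For the E-box the intervals of head-to-head and single starts with a peak overlapped.

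For the ETS core they did not. CCGGAA was in 41.6% (39.1 to 44.0) of head-to-head promoters with a peak and in 30.4% (29.2 to 31.7) of those with an unshared peak, against 8.89% of promoters with no peak and 17.2% of all. ACTACAA, part of the site of ZNF143, was in 6.41% (5.29 to 7.74), 3.67% (3.21 to 4.201), 1.79% and 2.77%. TATAAA was in 3.43% (2.63 to 4.46), 5.84% (5.26 to 6.49), 17.4% and 11.5%. CCAAT was in 41.2% (38.7 to 43.6), 37.7% (36.4 to 39.0), 34.5% and 34.6%, and the Sp1 core GGGCGG in 72.6%, 72.7%, 37.4% and 44.95%. The NRF1 site was in 3.17%, 2.42%, 0.578% and 1.24%, and the AP-1 site TGACTCA in 2.01%, 2.94%, 4.78% and 4.95%. Promoters of a head-to-head pair overlap, so a site can count for both genes. The intervals of head-to-head and unshared starts did not overlap for the ETS core, the ZNF143 part site and the TATA box, and did for the CCAAT box. With only the plus-strand gene of each pair, CCGGAA was in 40.2% (36.8 to 43.7) and ACTACAA in 6.15% (4.67 to 8.05) of 781 promoters, still apart from the unshared starts. TATAAA was then in 3.84% (2.70 to 5.43), an interval that overlapped that of the unshared starts.

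Median GC was 65.0% at head-to-head starts with a peak and 65.7% at single starts with one. Pairs with a CACGTG in either promoter (109 of 678) had a median fold of 11.3 (9.65 to 12.2), against 9.61 (9.19 to 10.2) without it, with overlapping intervals. At single starts the medians were 8.56 (8.06 to 8.93) with CACGTG and 7.48 (7.37 to 7.62) without. Pairs with CCGGAA had 9.54 (9.008 to 10.1) and pairs without it 10.3 (9.56 to 10.8), with overlapping intervals. At single starts the order was the opposite, with 8.04 (7.88 to 8.24) with CCGGAA and 7.29 (7.17 to 7.48) without, and the intervals did not overlap.

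Of 449 genes with a peak at a shared end and another at their own unshared end, the shared end had the higher fold in 237 (52.8%). Each such comparison sets a start against a 3′ end, so sharing and the kind of end cannot be told apart in it. In 121 genes with a peak at a shared start and another at their own 3′ end, the shared start had the higher fold in 100 (82.6%), with medians of 9.61 and 3.94. In 238 genes with a peak at a shared 3′ end and another at their own start, the shared end was higher in 88 (37.0%), with medians of 6.38 and 8.12. A second shared peak was found at 61 of the 1788 sets of genes. The stronger of the 2 had a median of 5.91 and the weaker of 3.72.

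The weakest shared peaks were at C1orf232/FAM110D (tail-to-tail, 2.14, 1.32 to 3.32), TAF10/TPP1 (head-to-tail, 2.16) and GRAMD2A/PKM (head-to-tail, 2.31), with pileups of 18, 28 and 24. Just inside the limit of 1 kb, the second end lay at 999 bp for CLASRP/RELB (fold 12.3), and at 996 bp for FBXL15/PSD (16.6) and LOC124900165/STX18 (11.3). Just outside it, at 1003 bp, were COMMD3/BMI1 (3.77), NPM3/FGF8 (3.61) and TP53INP2/NCOA6 (5.15). Over the 120 peaks with the second end in the last 100 bp inside the limit the median was 5.82, and over the 93 in the first 100 bp outside it was 6.14.

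Shared peaks were on each of the 22 chromosomes. Their share of the gene-end peaks ran from 11.1% on chromosome 7 to 22.9% on chromosome 16. Median folds ran from 6.95 on chromosome 14 to 11.6 over 24 peaks on chromosome 13. Chromosome 8, which carries MYC, had 58, with a median of 8.92.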

How the data were processed

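CUT&RUN libraries of HT29 cells (3 Myc, 3 IgG, 1 input) were summarised by the submitters in 1 peak list. The submitters' processing notes name hg38 and, without saying what each did, MACS2 2.1.2, HOMER 4.11.1, BWA 0.7.15, Picard 2.19.0, SAMtools 1.5, deepTools 3.5.0 and FastQC 0.11.7. Settings, the control and the joining of replicates: not given in the sources used here. Each peak has, as the authors deposited it, a fold (ratio of Myc signal to local control at the summit), a −log10 p, a −log10 q (lowest 1.30) and a score, which was not used.

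Positions are counted from 1. Gene ends came from RefSeq GRCh38.p14, and strand from its promoter table. Genes without strand stayed in the members and out of the orientation classes. The pileup was solved from fold and −log10 p as whole fragments (47016 of 47017 peaks within 0.001, and tested on simulated data). The fold was taken as the pileup plus 1 over the control level plus 1. Fold intervals are exact Poisson with the control held fixed, shares carry Wilson intervals, and medians carry binomial order-statistic intervals, all at 95%. Fold intervals cover counting error only, and reads carry no molecular identifiers. Intervals of shares and medians describe counts of peaks, genes or starts. None covers the spread between libraries, since the list holds 1 value per peak. Peaks are not replicates, so no test was run. Named pairs were the 20 highest, the 5 highest per orientation, the 10 highest with 3 or more genes, textbook pairs, the 3 widest and weakest, those at the limit, and up to 4 per list; a few of these are not reported here. The CpG bins, the lncRNA comparison and the counts of genes with a close end were added after seeing the data. Members and lists were chosen with earlier results of these data known. Alternatives were other windows (500 bp, 2 kb), −log10 q of at least 10, 1 summit per interval, no read-through genes, no chromosome 8, no peaks over 2 kb and no overlapping pairs. Python 3.11.15, pandas 2.3.3 and SciPy 1.17.1 were used.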

Additional observations from a re-analysis of the deposited data

How the results depend on the processing

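Shared ends had the higher median fold under each alternative that could change it. Without read-through genes the values changed little, with 1804 shared peaks, a median fold of 8.81 and 39.5% at a fold of 10 or more. Keeping 1 summit per interval left the list as it was, since no interval repeats, and so tests nothing. Without chromosome 8 there were 1791 shared peaks, with a median fold of 8.72 and 39.3% at a fold of 10 or more. The values for head-to-head pairs and lone starts could not change, since the promoter table gives no strand there. With a window of 500 bp there were 1194 shared peaks with a median fold of 9.19, against 7.15 near 1 gene. Of them 42.1% reached a fold of 10, and the share with a summit was 33.4% for all close end pairs, 68.3% for head-to-head pairs and 43.4% for lone starts. With 2 kb there were 2777 peaks, with medians of 7.71 (shared), 6.09 (1 gene) and 9.15 (head-to-head) and 32.6% at a fold of 10 or more. The shares with a summit were 56.3%, 92.2% and 54.8%. With a −log10 q of at least 10 the medians were 9.53 and 8.02, the log2 ratio fell to 0.25 for shared ends and 0.30 for head-to-head over single starts, 45.3% reached 10, and the shares with a summit were 43.2%, 84.1% and 43.0%. Without peaks wider than 2 kb 1215 shared peaks were left, with medians of 7.19, 5.81 and 8.21, a log2 ratio of 0.31, 25.4% at 10 or more and shares of 31.3%, 51.1% and 37.3%. This setting counts pairs whose wide peak is left out as having none. With pairs whose spans do not overlap, 61.2% of close end pairs and 89.99% of head-to-head pairs had a summit. The values for head-to-head over single starts, head-to-head pairs and lone starts were recomputed after seeing the data. No paired analysis was possible because the list holds 1 value per peak and none per library. Depth limits the list to pileups of 14 or more, so weaker sites at either kind of end could not be seen.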
